A study of Rattus norvegicus with 6 samples.

Results

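The genes described here encode the enzymes and the chaperone that modify collagen on its way from the ribosome to the crosslinked fibre: the prolyl 4-hydroxylase subunits P4ha1, P4ha2 and P4hb, the lysyl hydroxylases Plod1, Plod2 and Plod3, the collagen chaperone Serpinh1, and the lysyl oxidases Lox, Loxl1 and Loxl2. They were taken by gene name, which gave 1 row each for 10 genes among the 30957 genes of the deposited table, and all 10 were among the 12873 genes with enough counts to be tested. RNA came from the flexor digitorum longus, a toe flexor of the hind limb, of wild-type Sprague-Dawley rats. Control muscle at 0 h (3 libraries) was compared with muscle taken 18 h into acute compartment syndrome of the limb (ACS; 3 libraries), which was induced by a tight elastic band around the skin at the knee and in which pressure inside the closed compartment limits blood flow. No group at 18 h without the band was analysed here, so time and ACS cannot be told apart, and since every library carries the treatment label ACS, the titles gave the groups. The labels give no age and do not tie libraries to separate rats. The p-values therefore speak only of the spread among these libraries, which may be technical.

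Collagen chains enter the endoplasmic reticulum, where prolyl 4-hydroxylase modifies proline so that the triple helix is stable at body temperature. Its catalytic alpha subunit (P4ha1 or P4ha2) is joined to a beta subunit, P4hb, which is the protein disulfide isomerase that also folds many other secreted proteins. Plod enzymes hydroxylate lysine, which determines the kind of crosslink formed later, Serpinh1 (Hsp47) binds the folded helix until it leaves the endoplasmic reticulum, and the copper enzymes of the lysyl oxidase family start crosslinking outside the cell. The hydroxylases need oxygen, iron, 2-oxoglutarate and ascorbate, and P4ha1, P4ha2, Plod2, Lox and Loxl2 are known from work in human and mouse cells as targets of hypoxia-inducible factors. In muscle these proteins are mainly known from fibroblasts and tendon cells rather than from the fibres.

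Library totals lay between 14340865 and 21003928 counts. ACS replicate 1 stood apart, with 43.4% of its counts from the mitochondrial chromosome against 4.82% to 8.60% in the other 5 libraries. The fibre markers took 119322 to 139613 CPM (counts relative to library size, corrected for composition by TMM) in control and 77475 to 188466 CPM in ACS muscle, summed over the 6 genes found of the 8 listed, and none was at 0. Replicate 3 of each group has a description that holds "ji", a mark the labels do not explain, and fits with a term for these libraries and without them were run. In whole muscle, fewer cells of a type and less RNA per cell cannot be told apart.

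None of the 10 genes passed edgeR's quasi-likelihood test at an adjusted p under 0.05. In TMM-scaled CPM the ACS libraries of Lox and Loxl2 nevertheless all lay above the controls. For Lox this depended on the scaling, as given below. Over all genes tested, 4.14% passed, 3.43% as higher and 0.707% as lower. DESeq2 called Lox and Loxl2 higher, where it called 8.97% of all genes higher, and limma-voom called 0 members, where it called 2.04% higher. Without any 1 control library 0 genes of the whole table passed in edgeR, with 2075, 2063 and 2289 at an unadjusted p under 0.05 without control replicates 1, 2 and 3, so that every edgeR call given here was lost there. At an unadjusted p under 0.05 the members that stood out were again Lox and Loxl2, 2 of 10, where 23.5% of all genes did so. The separation of the groups was likewise seen in 2 of 10 members and in 31.5% of all genes, so neither count set the members apart from the table. The median log2 fold change was 0.13 over the members and -0.01 over all genes, with 5 members above 0 and 5 below. The plot of fold changes gives the intervals.

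**Figure D1:**
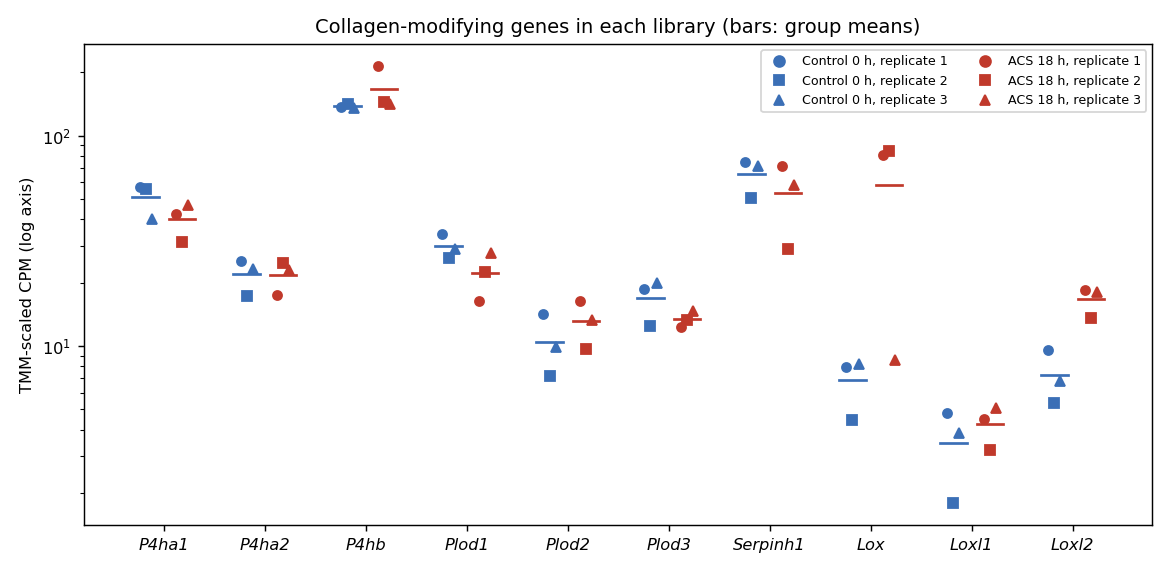
TMM-scaled CPM of each gene in each library on a log axis, with control libraries in blue, ACS libraries in red, a symbol for each replicate and a bar at each group mean. Lox lies at 80.5 and 84.8 CPM in ACS replicates 1 and 2 but at 8.59 in replicate 3, and Loxl2 at 13.6 to 18.3 CPM in ACS against 5.37 to 9.61 in control, while the other 8 genes overlap between groups.

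The order of levels was read per length, as the deposited FPKM (fragments scaled by gene length and library total). The library total includes mitochondrial counts, so FPKM served for the order of genes and for ratios within a library, and tests between groups used counts. In control muscle P4hb was the most abundant at 61.9 ± 2.00 FPKM (SD, n = 3), followed by Serpinh1 at 29.7 ± 5.96, P4ha1 at 26.9 ± 4.29 and Plod1 at 11.3 ± 1.35 FPKM. P4ha2 at 7.82 ± 1.47, Plod3 at 6.91 ± 1.68 and Loxl2 at 3.27 ± 0.900 FPKM came next, and Plod2 at 2.18 ± 0.689, Loxl1 at 1.39 ± 0.597 and Lox at 1.22 ± 0.377 FPKM were lowest. Of the neighbours in this order, the libraries overlapped for Serpinh1 and P4ha1, for P4ha2 and Plod3, and along the whole run from Loxl2 to Lox. In ACS muscle P4hb, Serpinh1 and P4ha1 stayed at the top, at 58.7 ± 5.25, 18.6 ± 5.90 and 16.8 ± 3.51 FPKM. Lox moved from the last place to the fourth by its mean of 8.10 ± 6.23 FPKM, but its libraries overlapped with those of Plod1 in the next place. In ACS replicate 3 Lox was the lowest of the members, at 1.29 FPKM.

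Among the prolyl hydroxylase genes no change was detected. P4ha1, the main catalytic subunit, stood at 57.1, 55.7 and 40.3 CPM in control and at 42.3, 31.1 and 46.7 CPM in ACS replicates 1 to 3. The groups overlapped through control replicate 3, and the log2 fold change was -0.35 (SE 0.27, adjusted p = 0.461 by edgeR), with a 95% interval from -0.96 to 0.26. P4ha2, the second catalytic subunit, stood at 25.4, 17.2 and 23.2 CPM in control and at 17.4, 24.9 and 22.9 CPM in ACS muscle, which is the same range. Its log2 fold change was -0.01 with an interval from -0.63 to 0.60, and its sign depended on the test and on the libraries used. P4hb was steady in control muscle at 137, 141 and 135 CPM and read 214, 144 and 141 CPM in ACS. Only ACS replicate 1 was clearly above the controls. The log2 fold change was 0.28 (interval -0.34 to 0.89), 0.051 without ACS replicate 1, and below 0, at -0.077, when libraries were scaled by their totals, a scaling that moved the median of all genes to -0.32.

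The P4ha1 to P4ha2 ratio, taken within each library on FPKM and so free of library scaling, was 3.33, 4.79 and 2.57 in control and 3.59, 1.85 and 3.02 in ACS muscle. P4ha1 was thus the more abundant subunit in all 6 libraries. The ratio did not separate the groups (2-sided exact permutation test, p = 0.5 and 0.5 after Benjamini-Hochberg adjustment over 6 ratios). With 3 libraries against 3 the smallest p that this test allows is 0.1.

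P4ha1, P4ha2 and Plod2, known hypoxia targets, were not called higher in ACS muscle, so the 250 bases before their annotated starts are shown together with those of Serpinh1, from RefSeq on the GRCr8 build, on the gene strand. Capitals mark the core letters of the hypoxia response element, ACGTG or GCGTG, on either strand (their reverse complements read CACGT and CACGC).
P4ha1: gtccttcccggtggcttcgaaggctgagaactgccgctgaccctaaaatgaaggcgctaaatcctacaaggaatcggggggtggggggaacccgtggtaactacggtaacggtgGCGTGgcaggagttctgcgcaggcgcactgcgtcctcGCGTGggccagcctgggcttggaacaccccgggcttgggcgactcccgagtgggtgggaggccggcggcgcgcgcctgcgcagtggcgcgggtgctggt
P4ha2: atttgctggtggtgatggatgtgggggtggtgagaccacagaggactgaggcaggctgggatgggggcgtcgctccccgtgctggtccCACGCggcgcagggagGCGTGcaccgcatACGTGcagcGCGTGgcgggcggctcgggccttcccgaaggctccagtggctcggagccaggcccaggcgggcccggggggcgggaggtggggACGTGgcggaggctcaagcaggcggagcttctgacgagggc
Plod2: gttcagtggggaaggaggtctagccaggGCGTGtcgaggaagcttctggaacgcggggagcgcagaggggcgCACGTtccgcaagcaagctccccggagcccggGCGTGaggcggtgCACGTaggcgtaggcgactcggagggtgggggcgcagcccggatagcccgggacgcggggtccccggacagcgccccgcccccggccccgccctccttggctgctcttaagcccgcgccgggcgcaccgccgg
Serpinh1: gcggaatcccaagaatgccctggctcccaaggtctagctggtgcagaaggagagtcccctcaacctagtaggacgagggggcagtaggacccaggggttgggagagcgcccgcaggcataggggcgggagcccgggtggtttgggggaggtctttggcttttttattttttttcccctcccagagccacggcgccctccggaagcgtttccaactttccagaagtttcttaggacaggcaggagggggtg
These windows are chr20:27844796-27845045 (plus strand), chr10:38743644-38743893 (plus strand), chr8:101964068-101964317 (plus strand) and chr1:163062977-163063226 (minus strand). Of the 8 members in the RefSeq promoter table, 5 held either core in this window (P4ha1, P4ha2, Plod1, Plod2 and Plod3), against 36.7% of 33469 promoter windows of the same length. P4ha1 held GCGTG only, starting 136 and 99 bases before the start of transcription. Plod2 held each core at 2 places and P4ha2 held 5 matches in all. GC content was 67.6% for P4ha1, 72.4% for P4ha2, 74.8% for Plod2 and 60.4% for Serpinh1, against a median of 51.2% over all windows, and these CG-holding cores are more easily met in GC-rich sequence. A match of letters is a description and not a binding site.

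Other known targets of hypoxia-inducible factors were set beside these. Of 13 tested, 3 rose and none fell: Adm, the vasodilator peptide adrenomedullin, with a log2 fold change of 3.37 (SE 0.45, adjusted p = 0.0134 by edgeR), Pfkfb3, which drives glycolysis, with 3.07, and Hk2, a hexokinase, with 2.24. Without both "ji" libraries, Pfkfb3 alone of these 3 passed (adjusted p = 0.0477), with Adm at 0.0628 and Hk2 at 0.0697. The list's median was 0.33, with 10 of the 13 above 0, against -0.01 over all genes.

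The lysyl hydroxylases did not pass either. Plod1, which acts on lysines of the helix, stood at 34.2, 26.1 and 28.8 CPM in control and at 16.4, 22.5 and 27.5 CPM in ACS muscle. ACS replicate 3 lay within the control range, and the log2 fold change was -0.42 (SE 0.27, adjusted p = 0.386 by edgeR; interval -1.05 to 0.20). Plod3, which also transfers glucose to galactosylated hydroxylysine, stood at 18.6, 12.4 and 19.8 CPM in control and at 12.3, 13.3 and 14.7 CPM in ACS muscle. Its groups overlapped through control replicate 2 alone, and its log2 fold change was -0.34 (interval -0.97 to 0.30). Plod3 overlaps Znhit1 on the opposite strand by 340 bases, and the counts of Znhit1 were 237 to 253 in control and 46 to 179 in ACS muscle. Strand use in the counting was not given in the sources used here. Plod2, which acts on the ends of the chain outside the helix, stood at 14.1, 7.21 and 9.87 CPM in control and at 16.3, 9.62 and 13.3 CPM in ACS muscle. These ranges overlapped, and the log2 fold change of 0.33 (interval -0.46 to 1.11) turned to -0.020 when scaled by library totals.

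Set against each other within a library, the lysyl hydroxylases did separate the groups in 1 pair. The Plod2 to Plod1 ratio of FPKM was 0.229, 0.153 and 0.190 in control and 0.551, 0.237 and 0.268 in ACS muscle. Every ACS library was above every control library, ACS replicate 1 by far the most, with a mean difference of 0.80 on the log2 scale (0.42 without ACS replicate 1). The exact permutation test gave p = 0.1, its smallest value, and 0.4 after adjustment over the 6 ratios. The Plod2 to Plod3 ratio was 0.392, 0.301 and 0.257 in control and 0.687, 0.373 and 0.468 in ACS muscle, where ACS replicate 2 was below control replicate 1 (difference 0.66 on the log2 scale, exact permutation p = 0.2, adjusted 0.4).

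Serpinh1, the collagen chaperone, stood at 75.0, 50.3 and 71.4 CPM in control and at 71.8, 29.0 and 58.3 CPM in ACS muscle. ACS replicate 2 was the only library below the controls. The log2 fold change was -0.31 (SE 0.36, adjusted p = 0.629 by edgeR; interval -1.12 to 0.50), and without ACS replicate 2 it was -0.052. The ratio of P4hb to Serpinh1, the general against the collagen-specific folding factor, was 1.81, 2.79 and 1.88 in control and 2.97, 4.94 and 2.41 in ACS muscle (exact permutation p = 0.2, adjusted 0.4). ACS replicate 3 lay inside the control range.

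Among other disulfide isomerases and chaperones of the endoplasmic reticulum, 1 of 11 rose and none fell. This was Hspa5 (BiP), the main Hsp70 of that compartment, from 125 ± 5.21 to 675 ± 527 CPM (SD, n = 3), a log2 fold change of 2.43 (SE 0.53, adjusted p = 0.0442 by edgeR). Its ACS libraries read 1279, 441 and 307 CPM, and the log2 fold change was 1.57 without ACS replicate 1 and short of the threshold without replicate 2 (adjusted p = 0.0573). Nor did it pass with a term for the "ji" libraries (adjusted p = 0.0728), where 1.93% of all genes were called higher, or without them (0.0761). The next by adjusted p, Pdia3, an isomerase for glycoproteins, had a log2 fold change of 1.21 (adjusted p = 0.104), and Pdia5 one of -1.03 (adjusted p = 0.280), neither past the threshold. The list's median was 0.26.

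**Figure D2:**
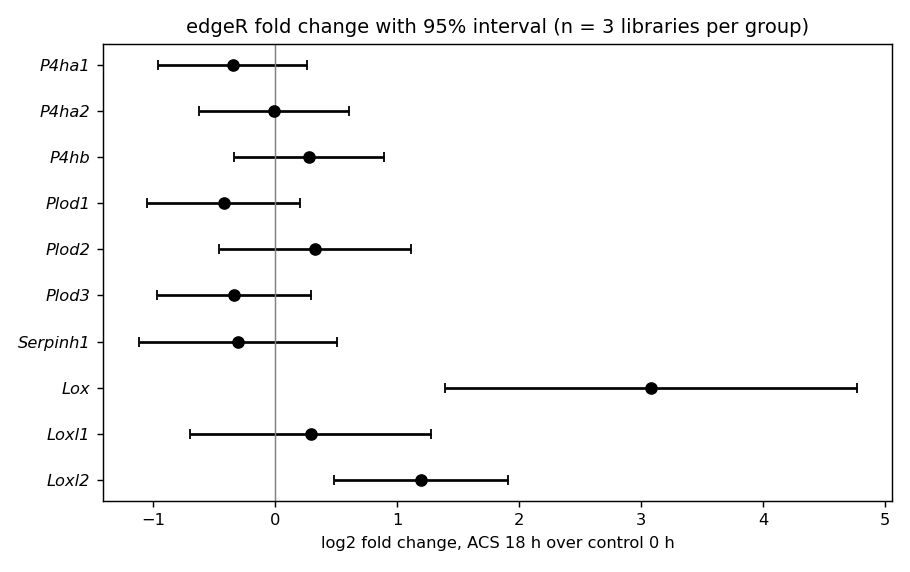
Log2 fold change of ACS 18 h over control 0 h for each gene, as points, with the 95% interval of the edgeR fit as bars (n = 3 libraries per group). The intervals of Lox (1.39 to 4.76) and Loxl2 (0.48 to 1.91) lie above 0, before any adjustment over genes, and the other 8 cross 0.

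Lox, the lysyl oxidase that crosslinks fibrillar collagen and elastin, had the largest difference of the members and the largest spread. It stood at 7.90, 4.45 and 8.22 CPM in control and at 80.5, 84.8 and 8.59 CPM in ACS replicates 1, 2 and 3, from 162, 92 and 199 counts and 860, 1649 and 154 counts. ACS replicates 1 and 2 were thus far above every control, whereas ACS replicate 3 exceeded the highest control only slightly. In FPKM, which is scaled by library total, ACS replicate 3 instead lay below control replicates 1 and 3, so the groups overlapped. The log2 fold change was 3.08 (SE 0.74, adjusted p = 0.0553 by edgeR; interval 1.39 to 4.76), and without ACS replicate 3 it was 3.58 (SE 0.32, adjusted p = 0.00241). The call also depended on the method: Lox passed in DESeq2 (adjusted p = 0.000200), with no filter on low counts (adjusted p = 0.0222) and without both "ji" libraries (adjusted p = 0.0273), 4 of 17 alternatives in all. The shares of all genes called higher were 9.72% without ACS replicate 3, 4.02% with no filter and 1.31% without the "ji" libraries. The fit without both "ji" libraries also leaves out ACS replicate 3, the ACS library with the least Lox. With a term for the "ji" libraries the log2 fold change of Lox was 2.65 and it did not pass (adjusted p = 0.115 by edgeR). Nor did it pass with limma-voom (2.52, adjusted p = 0.139). The Lox gene model (chr18:47500330-47577819, minus strand, in the deposited table, which names build Rnor 6.0 through the submitters' notes) overlaps Zfp474 on the opposite strand by 254 bases, and Zfp474 had at most 10 counts in any library.

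Loxl2 (chr15:51303909-51365234, plus strand), which crosslinks the collagen IV of basement membranes, was more even. It stood at 9.61, 5.37 and 6.81 CPM in control and at 18.3, 13.6 and 18.0 CPM in ACS muscle, with no overlap. The log2 fold change was 1.20 (SE 0.31, adjusted p = 0.0662 by edgeR; interval 0.48 to 1.91), a fold of 2.29, and it lay between 0.97 and 1.39 when any 1 library was left out. It passed in DESeq2 alone (adjusted p = 0.0124). Loxl1, which is tied to elastic fibres, stood at 4.78, 1.79 and 3.84 CPM in control and at 4.49, 3.19 and 5.08 CPM in ACS muscle. Its ranges overlapped, and its log2 fold change of 0.29 (interval -0.70 to 1.28) turned negative by library totals (-0.034) and without control replicate 2 (-0.069).

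The balance within the lysyl oxidase family followed Lox. The Lox to Loxl1 ratio of FPKM was 0.732, 1.10 and 0.948 in control and 7.94, 11.8 and 0.750 in ACS muscle. ACS replicate 3 lay inside the control range. The Lox to Loxl2 ratio was 0.323, 0.326 and 0.474 in control and 1.73, 2.45 and 0.188 in ACS muscle, where ACS replicate 3 was below every control. Neither ratio separated the groups (exact permutation p = 0.3 and 0.4, adjusted 0.45 and 0.48).

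Markers of tendon differed among themselves. Thbs4, Fmod and Comp, 3 of the 6, were lowest in ACS replicate 3, as Lox was among the ACS libraries, and the other 3 were not. Summed over 6 genes, they took 127 to 282 CPM in control and 715, 539 and 228 CPM in ACS replicates 1, 2 and 3, so that replicate 3 lay in the control range; Thbs4 and Fmod made up most of the sum. All 6 were tested and none passed in edgeR with all libraries, and none was at 0. Without ACS replicate 3, 3 passed. Comp alone passed with DESeq2, with no filter on low counts and without both "ji" libraries. It was also the only 1 to pass without ACS replicate 1, where 4.99% of all genes were called higher. Comp, a cartilage and tendon matrix protein, read 2.39, 4.31 and 4.63 CPM in control and 23.0, 38.6 and 6.25 CPM in ACS muscle, while the tendon transcription factor Scx read 5.74 to 8.14 CPM in control and 2.15, 4.73 and 9.15 CPM in ACS muscle, highest in the ACS library with the least Lox. Tnmd, a tendon membrane protein, read 0.919 to 2.39 CPM in control and 3.37, 4.17 and 3.63 CPM in ACS muscle, above control throughout. This came from 49, 19 and 47 counts in control and 36, 81 and 65 in ACS muscle. Scaled by library totals instead, ACS replicate 1 fell below control replicate 1. Mkx, a tendon transcription factor, read 0.578 to 1.32 CPM in control and 0.374, 0.823 and 0.893 CPM in ACS muscle, lowest in replicate 1. Fibroblast markers, 8 of 8 tested with none past the threshold, summed to 183 to 308 CPM in control and to 824, 372 and 300.4 CPM in ACS muscle. Neutrophil markers, of which 5 of 5 rose (0 with limma-voom, 2 with a term for the "ji" libraries and 0 without them), summed to 1.31 to 5.95 CPM in control and to 362, 24.9 and 80.3 CPM in ACS muscle, lowest in ACS replicate 2, where Lox was highest. Macrophage markers, 5 tested, had none past the threshold (3 with DESeq2, 3 without ACS replicate 3, 1 with no filter on low counts and 1 with a replicate block). They summed to 19.7 to 35.0 CPM in control and to 156, 57.3 and 27.7 CPM in ACS muscle, with a median log2 fold change of 1.82. Of these, 4 had a log2 fold change above 0. Adgre1 had one of -1.30, with all ACS libraries below all controls, and did not pass (adjusted p = 0.203 by edgeR). Endothelial markers, 4 tested with none past the threshold, summed to 201 to 313 CPM in control and to 484, 297 and 163 CPM in ACS muscle. The tendon, fibroblast, macrophage and endothelial sums were thus all lowest among the ACS libraries in replicate 3, like Lox, and highest in replicate 1. Smooth muscle markers, 4 tested with none past the threshold, summed to 150 to 210 CPM in control. In ACS muscle they summed to 148, 100 and 140 CPM, lowest in replicate 2. The part of these cell types in the Lox levels was not tested. The tendon genes, Adgre1 and the per-library sums were singled out after their values were seen.

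**Figure D3:**
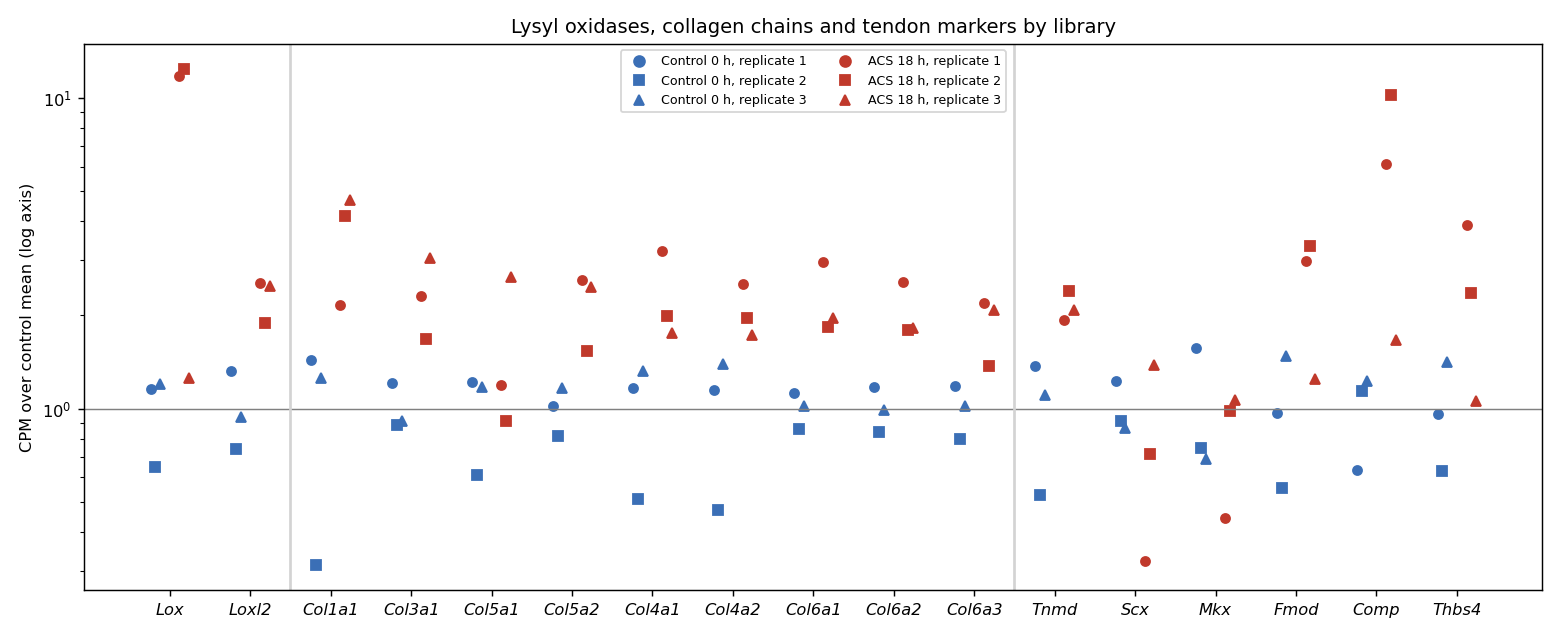
CPM of each gene over its control mean on a log axis, by library, for the lysyl oxidases Lox and Loxl2, for all 9 collagen chains tested and for all 6 tendon markers; the grey line is the control mean. ACS replicate 3 is the lowest ACS library for Lox, for 3 of the 6 tendon markers and for 2 of the 9 collagen chains (Col4a1 and Col4a2), and the highest for 3 collagen chains (Col1a1, Col3a1 and Col5a1).

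All 9 tested collagen chains had a log2 fold change above 0, without passing the test, and 8 of them had all ACS libraries above all controls. The elastic fibre genes of the same list were Fbn1 (log2 fold change 0.64), Fbln5 (-0.20) and Eln (-1.11), and none of the 3 passed. Of these 12 genes together, 9 had all ACS libraries above all controls, 9 had an unadjusted p under 0.05 in edgeR, and 0 passed after adjustment; DESeq2 called 7, limma-voom 0, and edgeR 2 without ACS replicate 1 and 2 without ACS replicate 3. Separation in the higher direction was seen in 16.7% of all genes, and a higher level at an unadjusted p under 0.05 in 15.5%. The smallest adjusted p were those of Col6a1 (log2 fold change 1.17, adjusted p = 0.0560), Col5a2 (1.13) and Col6a2 (1.04). The list's median was 1.04 against -0.01 over all genes. Col1a1 and Col3a1, the main chains of fibrous collagen, named after their values were seen, read 769, 1490 and 1672 CPM, and 789, 573 and 1050 CPM, in ACS replicates 1 to 3. Both were at their highest in replicate 3, the ACS library with the least Lox, whereas the basement membrane chains Col4a1 (620, 384 and 338 CPM) and Col4a2 (224, 175 and 154 CPM) were at their lowest there. Col1a2, the partner chain of Col1a1, is listed at 0 in every library and cannot be used.

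Set against collagen mRNA of the same library, most of the modifying genes were lower in ACS muscle, as were most genes of the table. Summed FPKM of the 10 listed collagen chains, Col1a2 at 0 among them, was 333, 180 and 319 in control and 450, 579 and 690 in ACS muscle, a comparison subject to the scaling by library total. The 5 hydroxylase genes (P4ha1, P4ha2, Plod1, Plod2 and Plod3) came to 18.3, 28.9 and 16.4 FPKM per 100 FPKM of collagen in control and to 6.38, 6.38 and 6.38 in ACS muscle. The close match of the ACS libraries depended on Col1a1: without that chain the values were 8.17, 11.5 and 10.5, against 22.7 to 32.8 in control. Serpinh1 came to 9.91, 12.6 and 10.4 per 100 in control and to 4.80, 2.03 and 3.23 in ACS muscle. Lysyl oxidase genes came to 2.24, 2.18 and 1.96 per 100 in control and to 3.60, 3.48 and 1.43 in ACS muscle, so that 2 ACS libraries were above and 1 below the controls. By this measure 8 of 10 members had all ACS libraries below all controls, and so had 68.2% of all genes tested (61.7% without Col1a1), the denominator being larger. Per unit of collagen, the hydroxylase sum stood at 0.301 of its control mean and the median gene at 0.362. These ratios were chosen after the values were seen and carry no test.

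**Figure D4:**
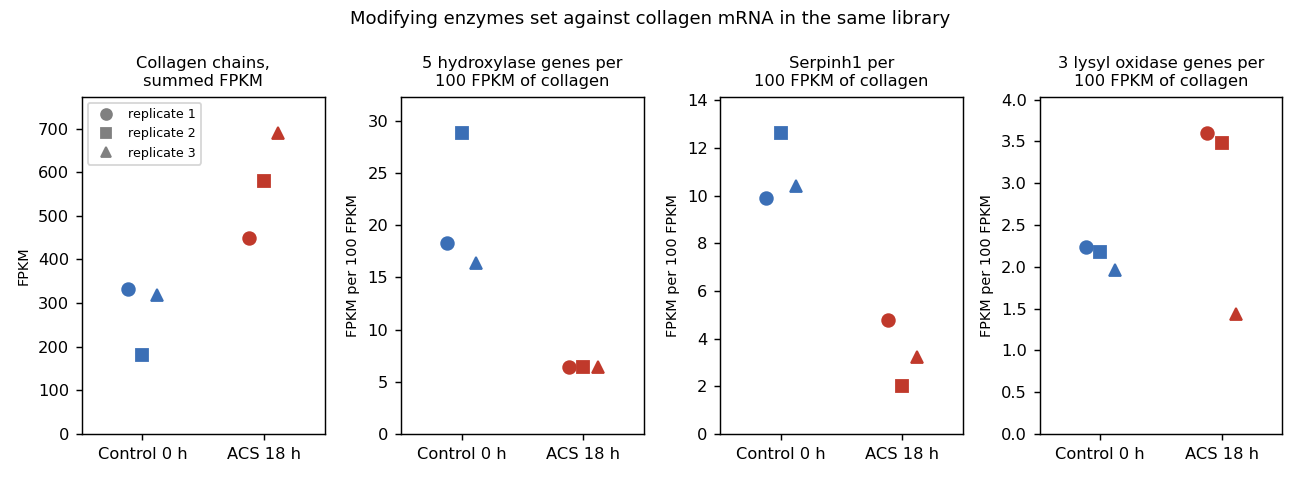
Summed FPKM of the collagen chains, and FPKM of the 5 hydroxylase genes, of Serpinh1 and of the 3 lysyl oxidase genes per 100 FPKM of collagen, in each control (blue) and ACS (red) library, with a symbol for each replicate. The hydroxylases lie at 6.38 in all 3 ACS libraries against 16.4 to 28.9 in control, and the lysyl oxidases at 3.60 and 3.48 in ACS replicates 1 and 2 but 1.43 in replicate 3.

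Of 22 other genes of collagen modification and export that were tested, 1 rose and none fell. Fkbp10 (FKBP65), a peptidyl-prolyl isomerase of collagen folding that works with Plod2, read 5.41, 3.34 and 3.59 CPM in control and 14.8, 14.97 and 9.38 CPM in ACS muscle. No library overlapped, and the log2 fold change was 1.66 (SE 0.35, adjusted p = 0.0397 by edgeR), though without ACS replicate 2 it did not pass (adjusted p = 0.0828, where 2.14% of all genes were called higher), nor by library totals (adjusted p = 0.0642, where 2.68% were). With a term for the "ji" libraries and without them its adjusted p was 0.0530 and 0.0860. Pcolce, an enhancer of propeptide removal, had a log2 fold change of 0.98 and Loxl4, a further lysyl oxidase, of 1.35, without passing (adjusted p = 0.0835 and 0.159). In all 7 of the 22 had separated groups in the higher direction, against 16.7% of all genes, and the median was 0.51.

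Transport of the cofactors was measured by 4 tested genes, of which 2 rose: Slc23a2, an ascorbate carrier, from 16.6 ± 1.56 to 44.3 ± 7.97 CPM (log2 fold change 1.41, adjusted p = 0.0286 by edgeR), and Slc31a1, the copper importer, from 5.29 ± 0.630 to 13.3 ± 3.03 CPM (1.33, adjusted p = 0.0499). Neither passed without ACS replicate 2 (adjusted p = 0.0558 and 0.106) or when scaled by library totals (adjusted p = 0.0597 and 0.108) or without the "ji" libraries (0.0672 and 0.0828). Slc31a1 stood at the threshold and also missed it with the term for these libraries (adjusted p = 0.0817), with limma-voom (0.0619), with DESeq2 size factors (0.0501) and with TMM scaling without mitochondrial and haemoglobin genes (0.0548). Atox1, which hands copper on, had a log2 fold change of -0.47 and did not pass. Slc23a1, the other ascorbate carrier, is listed at 0 in every library. Of 12 genes of TGF-beta signalling, which is known to induce collagen and Lox, 2 rose and none fell: Tgif1, a transcriptional repressor, with 4.67, and Skil, a feedback inhibitor, with 1.59, which did not pass by library totals (adjusted p = 0.0571), with a term for the "ji" libraries (0.0532) or without them (0.106). The list's median was 1.00. Skil also did not pass with limma on log2(FPKM + 1) or log2(FPKM + 0.1) (adjusted p = 0.0661 and 0.0768). Nor did Fkbp10, Hspa5, Slc23a2 or Slc31a1 in either of these fits.

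The genes most like each member over the 6 libraries were found by the root mean square (RMS) difference in log2 CPM, each gene being centred on its control mean, among 8345 named genes with a mean of at least 5 CPM. For Lox they were Chad, a cartilage and tendon matrix protein, and Cpne8, at 0.304 and 0.372. For Loxl2 they were Lrrc32, which anchors latent TGF-beta at the cell surface, and Tns3, at 0.138 and 0.142. For P4hb they were Usp32 and Ncbp1, at 0.0506 and 0.0608, and for P4ha1 Osbpl1a and Erlin2, at 0.0578 and 0.0806. P4ha2 was closest to Gbf1 and Prrc2a, Plod1 to Tpp1 and Oxa1l, Plod2 to Fndc1 and St3gal1, Plod3 to Eml2 and C2cd3, Serpinh1 to Dnm1, and Loxl1 to Galnt10 and Gsk3b, at 0.0663 to 0.227. Among the members themselves the closest pairs were Plod2 with Loxl1 (0.225) and Plod1 with Plod3 (0.233). The nearest gene of Lox was farther from it than the nearest gene of any other member. The measure is not scaled to the size of a gene's differences, which were largest for Lox among the members. Chad read 3.28, 3.13 and 0.13 in ACS replicates 1 to 3 on this centred scale, where Lox read 3.58, 3.66 and 0.37. The 6 libraries are shared by all genes, so these values only describe likeness here.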

How the data were processed

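Per the labels' protocols, libraries came from total RNA after removal of ribosomal RNA. The deposited table holds whole-number read counts and FPKM per Ensembl gene. Per the submitters' processing notes, the tools StringTie 1.3.0 and HISAT2 2.0.4 and build Rnor 6.0 were involved, in roles not stated. For the counting tool, strand and reads with several matches, settings were not given in the sources used here. Deposited FPKM of the authors equalled count over gene length and column total within 0.1% in all 11174 genes with at least 10 counts in every library. Groups and replicate numbers came from titles.

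Counts were filtered with edgeR 4.0.16 (filterByExpr, minimum count 10, minimum total 15), scaled by TMM and tested with its quasi-likelihood F test, with Benjamini-Hochberg adjustment over all 12873 genes and a threshold of 0.05. Standard errors of log2 fold changes came from the F statistic. R 4.3.3, limma 3.58.1, DESeq2 1.42.0 and matplotlib 3.10.9 were also used, and the fits were tested on simulated data. All pairs of libraries differed by more than sampling noise (chi-square per degree of freedom 38.2 to 721).

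The members and lists were chosen with earlier results of these data known. Genes named are all members, the 3 smallest adjusted p of each pathway list and the 2 genes most like each member; others are said to be chosen after their values were seen. Of the genes that this rule names, 2 are not reported here. Of the list symbols, Pcolce2, Egln1, Pecam1, Myh4 and Myh2 were not matched, and 3 were matched through an older symbol. Where a symbol had several rows, that with most counts was kept. The alternatives are other scalings, filters, tests, a replicate block, the "ji" libraries and leaving out each library. Promoter sequences are from RefSeq (GRCr8), matched by symbol for 8 of 10 members.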

Additional observations from a re-analysis of the deposited data

How the results depend on the processing

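The members called higher numbered 1 with no filter on low counts (Lox), 2 with DESeq2 (Lox and Loxl2), 1 without both "ji" libraries (Lox) and 0 to 1 when any 1 library was left out (Lox without ACS replicate 3), against 0 with all libraries; members called lower numbered 0 throughout. Over all genes, 442 were called higher and 91 lower. The higher calls numbered 755 with no filter, 1320 with DESeq2, 262 with limma-voom, 249 and 199 with limma on log2(FPKM + 1) and log2(FPKM + 0.1), 248 with a term for the "ji" libraries, 171 without both, and 0 to 1286 with 1 library left out. By library totals 345 were called higher and 228 lower. The lower calls numbered 153 with no filter, 429 with DESeq2, 268 with limma on log2(FPKM + 1), 32 with the "ji" term, 30 without the "ji" libraries, and 0 to 398 with 1 library left out. The cause was not tested.

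The log2 fold change changed sign for P4ha2 (0.0032 with limma-voom, and 0.050 without control replicate 1 and 0.12 without ACS replicate 1, in a range from -0.21 to 0.12 with 1 library left out), P4hb (-0.077 by library totals, and -0.079 and -0.081 with limma on log2(FPKM + 1) and log2(FPKM + 0.1)), Plod2 (-0.020 by library totals) and Loxl1 (-0.034 by library totals, and -0.069 without control replicate 2, in a range from -0.069 to 0.53 with 1 library left out), where none was called. The other 6 members kept their direction in all 17 alternatives. With 1 library left out, the differences in log2 ratio lay between -0.55 and -0.07 for P4ha1 to P4ha2, 0.42 and 1.03 for Plod2 to Plod1, 0.42 and 0.86 for Plod2 to Plod3, 1.42 and 3.40 for Lox to Loxl1, 0.63 and 2.48 for Lox to Loxl2, and 0.34 and 0.86 for P4hb to Serpinh1. Same-numbered libraries of the groups share only a number: their deviations correlated at -0.06, 0.01 and 0.04 over genes. With the replicate block 442 genes were called higher and 63 lower, 0 members were called, Lox was at 2.68 (adjusted p = 0.0901 by edgeR) and Loxl2 at 1.22 (adjusted p = 0.0848); of the other genes named as rising, Slc31a1 did not pass there (adjusted p = 0.0919). Lox and Loxl1, the members with the lowest FPKM in control muscle, had 37 to 1649 counts a library, and the lower counts carry more counting error.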

Other observations

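Among relatives of the members, Ppib (cyclophilin B), part of the prolyl 3-hydroxylase complex, read 17.9 ± 0.495 CPM in control muscle against 28.6 ± 6.72 CPM at 18 h (SD, n = 3) with no overlap, without passing the test. Its partner P3h1, the enzyme of that complex, read 8.56 ± 1.43 and 6.30 ± 1.23 CPM, with overlap. Sparc, a matrix protein that binds collagen, read 306, 180.3 and 353 CPM in control and 438, 462 and 431 CPM in ACS muscle, also with no overlap (adjusted p = 0.247 by edgeR). Scaled by library totals instead, its groups overlapped, with ACS replicate 1 below control replicates 1 and 3. P4ha3, the third catalytic subunit of prolyl 4-hydroxylase, had 3 to 15 counts a library, at 0.292 ± 0.213 and 0.843 ± 0.486 CPM. These 4 genes were chosen after their values were seen.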
